A study of Mus musculus with 6 samples.

Results

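The genes of osteoclast immunoreceptor co-stimulation were measured in RNA from osteoclast precursors (OCPs) of mice with and without the long non-coding RNA lincRNA-EPS. They were 10 genes, taken by gene symbol from the 57180 genes of the count table: the receptors *Oscar*, *Trem2*, *Pirb*, *Pira12* and *Sirpb1a*, the adaptors *Tyrobp* and *Fcer1g*, and the signalling enzymes *Syk*, *Plcg2* and *Btk*. All 10 were among the 13428 genes that passed the filter on low counts. Bone marrow-derived macrophages came from wild-type C57BL/6 mice (WT, n = 3 libraries) and from lincRNA-EPS knockout mice (KO, n = 3 libraries), and the replicates of a genotype were described as biologically independent. The age of the donor mice was not given for these cultures. Both genotypes received 40 ng/ml M-CSF, a macrophage growth factor, for 24 h. RANKL, the cytokine that starts osteoclast differentiation, was then added at 40 ng/ml for 48 h. No library lacked RANKL, so the comparison is between genotypes in RANKL-primed OCPs.

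Osteoclast differentiation needs a second signal beside RANKL. OSCAR, which binds collagen, and the activating PIR-A receptors pass it on through the FcR gamma chain (encoded by *Fcer1g*), whereas TREM2 and SIRP beta 1 use DAP12 (encoded by *Tyrobp*). Both adaptors carry an immunoreceptor tyrosine-based activation motif (ITAM), which recruits the kinase SYK once it is phosphorylated. SYK acts with the TEC-family kinase BTK on phospholipase C gamma 2 (encoded by *Plcg2*), and the calcium signal that follows activates NFATc1, the main transcription factor of the osteoclast. PIR-B is the inhibitory partner of the PIR-A receptors, carries inhibitory motifs that recruit the phosphatase SHP-1, and binds MHC class I.

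The libraries held 17757351 to 19998611 counts. lincRNA-EPS itself (listed as *Ttc39aos1*) had 20, 37 and 41 counts in the WT libraries and 0 in each KO library. KO replicate 2 stood apart by 2.71% of counts from 18S rRNA, against at most 0.575% in the others, and KO replicate 3 by 3.32% from mitochondrially encoded genes, against at most 2.12%. Across the 13176 genes tested with a known GC content, the log2 fold change declined as the GC content of the transcript increased (r = -0.51, a correlation across genes, which do not count as replicates), so most named genes are also described after a correction for GC content. The cultures expressed the 8 osteoclast markers chosen for the check, with summed levels of 4871 to 5163 CPM (counts scaled to a common library size) in WT and 6422 to 7044 in KO, and the 6 macrophage markers at 3605 to 3940 and 3166 to 3415 CPM. The 11 neutrophil markers summed to 1349 to 1546 CPM in WT and 1813 to 2111 in KO. Of the 10 neutrophil markers tested, 6 lay higher and 2 lower in every KO library, so the sum does not stand for every marker. Of all genes tested, 16.9% lay higher and 18.8% lower. The 5 mast cell or basophil markers summed to 2.02 to 3.45 CPM in WT and 5.35 to 6.70 CPM in KO. Dendritic cell markers summed to 11.8 to 14.9 CPM in WT and 15.8 to 16.2 in KO. Megakaryocyte markers summed to 180 to 203 and 173 to 206 CPM. B cell markers summed to 6.65 to 8.16 and 7.85 to 9.24 CPM, and stromal markers to 24.3 to 33.2 and 21.2 to 30.8 CPM. T cell markers stayed at or below 2.18 CPM in sum, with *Cd3e* and *Cd3g* under 3 counts in every library. NK cell markers stayed at or below 0.23 CPM, with *Ncr1*, *Prf1*, *Gzma* and *Eomes* under 3 counts. Neutrophils, mast cells and macrophages also use FcR gamma, DAP12 and PIR receptors. The part of these cell mixtures in the values below was not tested, and in bulk RNA fewer cells of a type and less RNA per cell cannot be told apart.

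The 300-base windows around the start sites (250 bases before, 50 after; RefSeq, GRCm38.p6) are printed for the members at the 2 extremes of the fold changes, for *Trem2*, and for *Pirb* and *Pira2*, which with *Pira12* have the highest counts of the PIR family. Capitals mark GAGGAA, the core bound by the myeloid factor PU.1, and GGAAA, the core bound by NFAT, on either strand. The 2 motifs overlap where a run reads GAGGAAA or its complement. Counts were made on GRCm39, and these coordinates belong to GRCm38. The windows lie at chr7:3616108-3616407 (minus strand) for *Oscar*, chr17:48346151-48346450 (plus strand) for *Trem2*, and, all on the minus strand, chr7:3720333-3720632 for *Pirb*, chr7:3898092-3898391 for *Pira12* and chr7:3845002-3845301 for *Pira2*.
Oscar: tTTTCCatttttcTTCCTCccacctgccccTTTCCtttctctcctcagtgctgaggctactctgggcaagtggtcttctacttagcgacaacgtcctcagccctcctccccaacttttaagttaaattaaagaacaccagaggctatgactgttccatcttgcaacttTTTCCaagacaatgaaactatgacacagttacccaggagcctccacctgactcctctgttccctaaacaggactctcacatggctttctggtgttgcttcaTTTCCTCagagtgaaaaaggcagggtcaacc
Trem2: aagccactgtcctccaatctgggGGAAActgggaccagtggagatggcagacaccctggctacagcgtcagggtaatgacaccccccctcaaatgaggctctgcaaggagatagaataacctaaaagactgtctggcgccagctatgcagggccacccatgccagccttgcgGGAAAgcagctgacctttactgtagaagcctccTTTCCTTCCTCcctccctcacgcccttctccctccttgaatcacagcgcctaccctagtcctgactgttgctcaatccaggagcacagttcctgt
Pirb: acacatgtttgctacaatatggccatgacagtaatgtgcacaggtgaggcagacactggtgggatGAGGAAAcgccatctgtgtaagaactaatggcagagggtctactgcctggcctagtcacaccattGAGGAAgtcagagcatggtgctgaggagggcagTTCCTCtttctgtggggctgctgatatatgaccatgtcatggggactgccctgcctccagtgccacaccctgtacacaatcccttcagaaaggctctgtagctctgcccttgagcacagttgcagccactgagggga
Pira12: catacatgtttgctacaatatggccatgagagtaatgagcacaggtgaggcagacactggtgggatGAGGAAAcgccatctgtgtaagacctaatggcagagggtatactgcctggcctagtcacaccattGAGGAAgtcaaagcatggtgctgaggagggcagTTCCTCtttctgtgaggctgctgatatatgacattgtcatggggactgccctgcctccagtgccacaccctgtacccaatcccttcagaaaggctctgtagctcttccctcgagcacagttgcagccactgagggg
Pira2: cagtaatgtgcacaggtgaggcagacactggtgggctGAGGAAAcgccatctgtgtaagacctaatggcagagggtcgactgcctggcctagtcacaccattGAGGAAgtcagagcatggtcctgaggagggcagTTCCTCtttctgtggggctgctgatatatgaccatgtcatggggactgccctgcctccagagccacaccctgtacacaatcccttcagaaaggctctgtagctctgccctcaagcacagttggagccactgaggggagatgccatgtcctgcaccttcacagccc

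The *Oscar* window held 2 GAGGAA and 4 GGAAA matches, of which 1 of each overlapped each other just past the start site, and the *Trem2* window held 1 and 3. *Pirb* and *Pira12* each held 3 GAGGAA matches and 1 GGAAA match, at the same spacing. Of all 32851 mouse promoter windows of this length, 28.3% held GAGGAA and 61.3% held GGAAA, so neither is rare. The *Trem2* window also held TGANTCA, the AP-1 core, which 7.81% of windows held. Windows were found for 9 of the 10 members, all but *Tyrobp*. The *Pirb* and *Pira12* windows were 95.3% identical over their alignment, *Pirb* and *Pira1* (not printed) 97.3%, *Pirb* and *Pira2* 80.5%, and *Oscar* and *Trem2* 46.2%.

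*Oscar* had the largest fold change of the 10 genes, and its expression was higher in every KO library than in any WT library. Its levels were 18.2, 21.2 and 19.1 CPM in WT replicates 1 to 3 and 29.2, 28.9 and 36.5 CPM in KO replicates 1 to 3. The means were 19.5 ± 1.53 CPM in WT and 31.5 ± 4.27 CPM in KO (SD, n = 3 each), a 1.62-fold difference (log2 fold change 0.70, standard error 0.13). By unadjusted p it ranked 46 among the 13428 genes tested with edgeR. It did not pass adjustment over all of them (edgeR adjusted p = 0.136). The value was 0.70 with the GC correction (edgeR adjusted p = 0.0304). DESeq2 gave 0.69 with an adjusted p = 0.00122 and called *Oscar* higher. KO replicate 3, the library with the most mitochondrial counts, was the highest, and the log2 fold change was 0.58 without it.

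*Trem2*, whose product binds lipids and apolipoproteins and pairs with DAP12, was lower in every KO library before the GC correction and overlapped between the groups after it. WT replicates 1 to 3 had 326, 337 and 347 CPM and KO replicates 1 to 3 had 273, 279.7 and 225 CPM. The WT libraries were close together, and KO replicate 3 was the lowest (WT 337 ± 10.6, KO 259 ± 30.2 CPM). The log2 fold change of -0.38 (standard error 0.11) had an edgeR adjusted p = 0.147 and a DESeq2 adjusted p = 0.0316, both short of the limits. Its transcript has a GC content of 57.5%, the highest of the 10 genes, and the GC-corrected log2 fold change was -0.13 (edgeR adjusted p = 0.293).

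The 2 ITAM adaptors gave overlapping groups. *Tyrobp* stood at 369.8, 299.6 and 384 CPM in WT and at 386, 377 and 364 CPM in KO. Only WT replicate 2 lay away from the rest, at the low end. *Fcer1g* stood at 371, 270.2 and 373 CPM in WT and 376, 405 and 269 CPM in KO, so that 1 library of each genotype, WT replicate 2 and KO replicate 3, was low. The log2 fold changes were 0.10 (standard error 0.11, edgeR adjusted p = 0.590) for *Tyrobp* and 0.05 (standard error 0.18, adjusted p = 0.863) for *Fcer1g*, with either sign when single libraries were left out. After the GC correction *Tyrobp* did not overlap (log2 fold change 0.24, edgeR adjusted p = 0.225), while *Fcer1g* did (0.10).

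**Figure D1:**
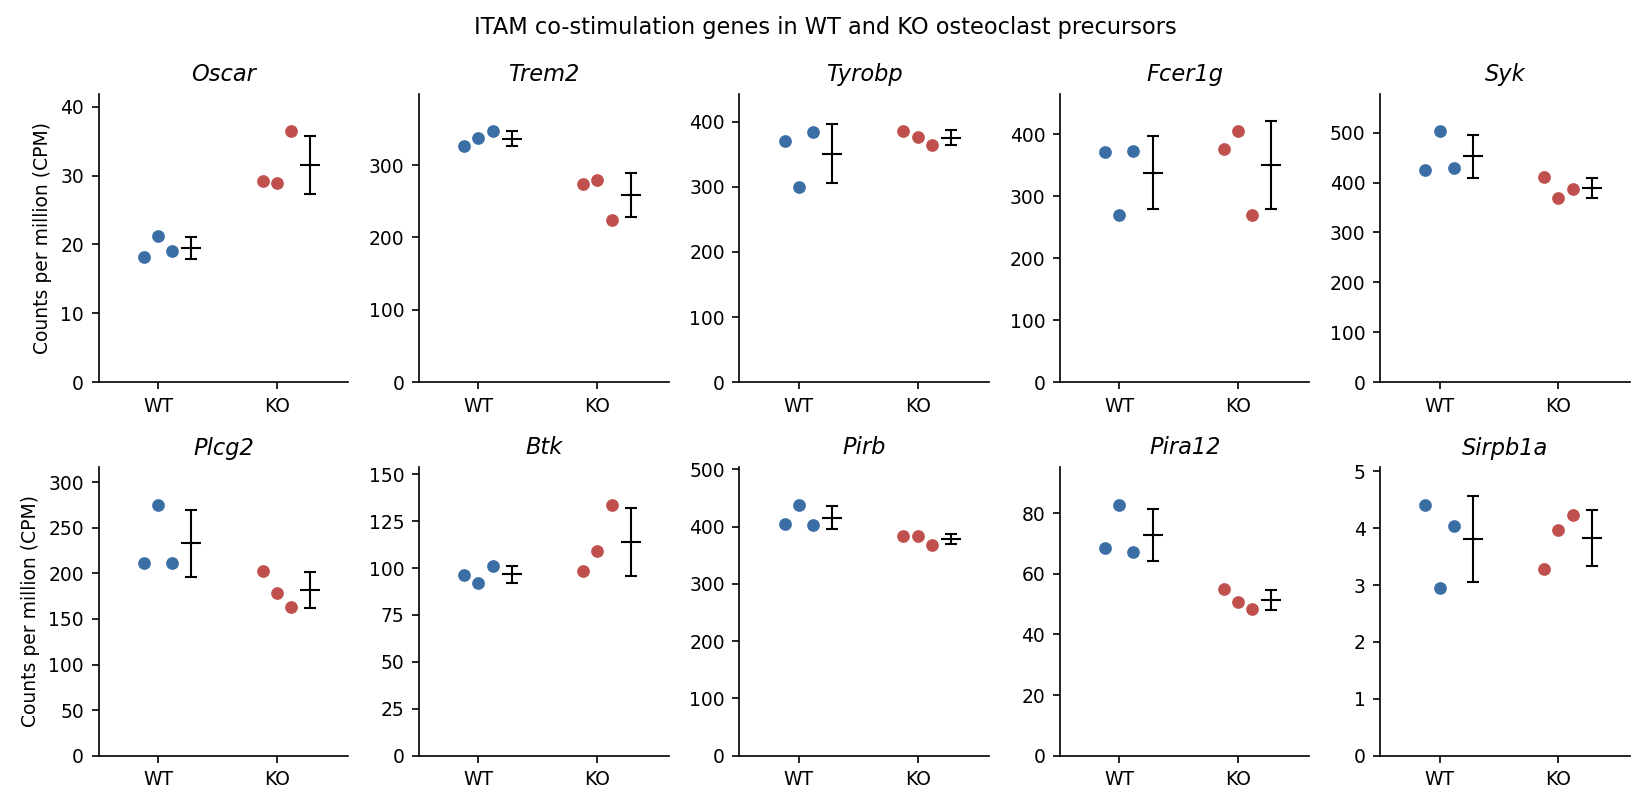
CPM of the 10 co-stimulation genes in each library (points; blue WT, red KO; horizontal mark and bar, mean ± SD of 3 libraries), each panel with its own axis from 0. *Oscar* lies at 18.2 to 21.2 CPM in WT and 28.9 to 36.5 CPM in KO, and *Tyrobp*, *Fcer1g*, *Btk* and *Sirpb1a* overlap.

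Among the signalling enzymes, *Syk* and *Plcg2* were lower in the 3 KO libraries and *Btk* overlapped. *Syk*, the kinase that docks on the phosphorylated ITAM, had 425, 503 and 429 CPM in WT and 411, 369 and 387 CPM in KO. Its lowest WT and highest KO libraries were close, and the log2 fold change was -0.22 (standard error 0.10, edgeR adjusted p = 0.206). *Plcg2* had 212, 275 and 211 CPM in WT and 202, 178 and 163 CPM in KO. WT replicate 2 was the highest for both enzymes, and without it the log2 fold change of *Plcg2* went from -0.36 (standard error 0.13, edgeR adjusted p = 0.158) to -0.22 and that of *Syk* to -0.14. *Btk* had 96.5, 92.0 and 101 CPM in WT and 98.4, 109 and 134 CPM in KO. Its difference rested mostly on KO replicate 3, the highest library, with a log2 fold change of 0.24 (standard error 0.12, edgeR adjusted p = 0.241) that was 0.10 without it. With the GC correction the log2 fold changes were -0.08 for *Syk*, -0.21 for *Plcg2* and 0.13 for *Btk*, and *Plcg2* alone of the 3 still did not overlap.

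The paired receptors differed in their individual levels, and *Pira12* had the largest negative log2 fold change of the 10 genes. *Pira12*, an activating PIR-A receptor, had 68.4, 82.9 and 67.4 CPM in WT and 55.0, 50.9 and 48.3 CPM in KO, with no overlap (WT 72.9 ± 8.65, KO 51.4 ± 3.42 CPM). The log2 fold change was -0.50 (standard error 0.11, edgeR adjusted p = 0.147) and -0.47 with the GC correction (edgeR adjusted p = 0.0406). DESeq2 called it lower (log2 fold change -0.50, adjusted p = 0.00973). *Pirb* had 404, 438 and 403 CPM in WT and 383, 383 and 368 CPM in KO. These groups did not overlap either, but the distance was small (log2 fold change -0.13, standard error 0.09, edgeR adjusted p = 0.334). It was -0.19 with the GC correction. *Sirpb1a*, an activating receptor of the SIRP family, was the least abundant member, at 4.41, 2.96 and 4.04 CPM in WT and 3.28, 3.97 and 4.23 CPM in KO. That corresponds to 54.0 to 87.9 counts a library, and the log2 fold change was 0.0045 (standard error 0.20, edgeR adjusted p = 0.990), with -0.17 after the GC correction and either sign under other settings.

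Of the 10 genes, 0 passed the limits (adjusted p under 0.01 and fold change above 1.3) with edgeR, where 0% of the 13428 genes passed as higher and 0.00745% as lower. At an unadjusted p under 0.05, *Oscar* was higher and *Trem2*, *Plcg2* and *Pira12* were lower in edgeR, against 13% and 13.2% of all genes. limma-voom also called 0 of the 10. DESeq2 called *Oscar* higher, where 0.521% of the 10357 genes with an adjusted p passed, and *Pira12* lower, where 0.695% did. *Sirpb1a* had no adjusted p from DESeq2, which leaves out low counts. DESeq2 with the GC correction called the same 2 genes, against 1.62% of 11602 genes as higher and 1.47% as lower. At the looser adjusted p of 0.05, edgeR with the GC correction also gave *Oscar* as higher (0.492% of genes) and *Pira12* as lower (0.7% of genes).

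Of the 10 genes, 1 lay higher in all KO libraries, 5 lay lower and 4 overlapped, against 16.9% of all genes higher and 18.8% lower. After the GC correction these were 2 higher (*Oscar* and *Tyrobp*), 3 lower (*Plcg2*, *Pirb* and *Pira12*) and 5 overlapping, against 15% and 17.8% of all genes. The 5 lower genes before the correction include *Pirb* and *Pira12*, whose transcripts share sequence, and *Trem2* and *Syk*, which overlapped after it. The 10 genes were chosen with earlier results of these data known, and their shares were not tested against those of all genes. The median log2 fold change of the 10 was -0.07 (-0.10 after the correction), beside 0.0091 (-0.0079) for all genes.

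**Figure D2:**
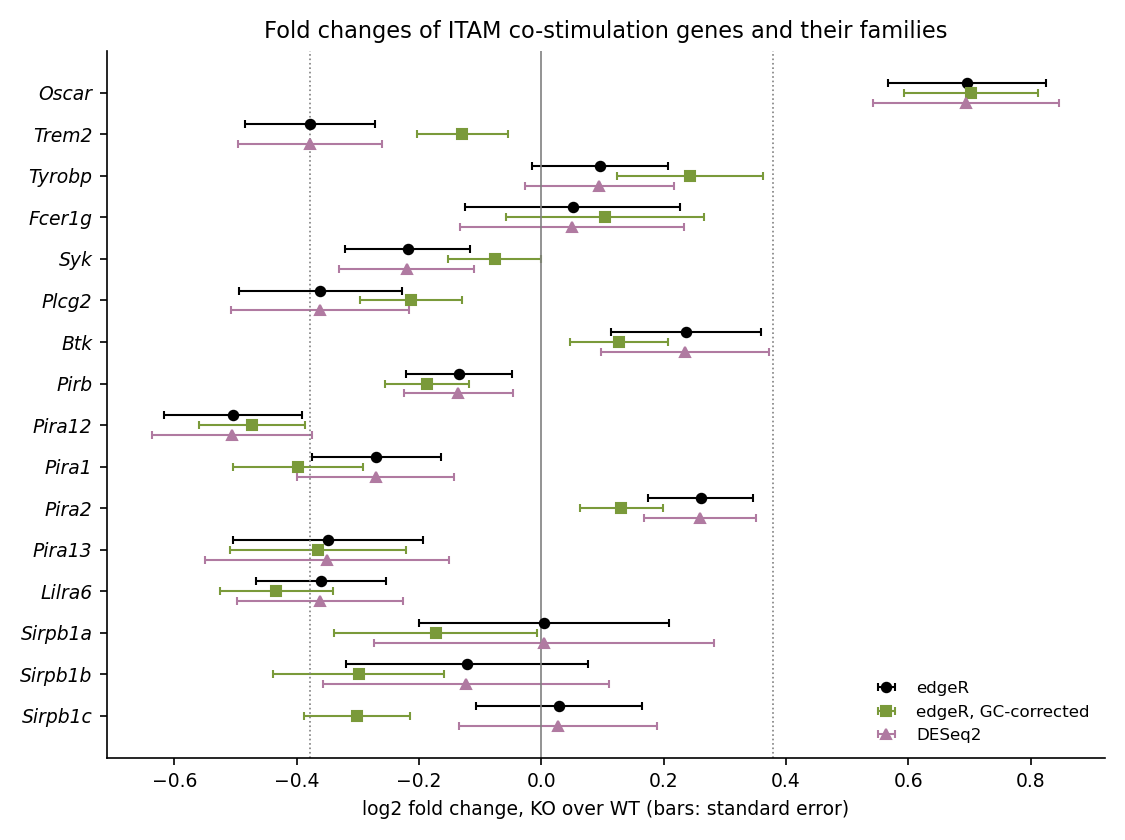
Log2 fold changes (KO over WT) with their standard errors from edgeR (circles), edgeR with the GC correction (squares) and DESeq2 (triangles), for the co-stimulation genes and the other measured genes of the Pir and Sirpb1 families. The dotted lines mark the fold change limit of 1.3. *Oscar* lies beyond it at 0.70, 0.70 and 0.69, *Pira12* at -0.50, -0.47 and -0.50, and *Trem2* moves from -0.38 to -0.13 with the GC correction.

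Levels were put on a scale per transcript length (RPKM, the CPM per kilobase of the longest protein-coding transcript) to compare the genes with each other. In WT OCPs the order was *Tyrobp* (588 ± 76.0 RPKM), *Fcer1g* (495 ± 86.1), *Trem2* (309 ± 9.76), *Pirb* (109 ± 5.26), *Syk* (84.4 ± 8.16), *Plcg2* (54.2 ± 8.57), *Btk* (38.0 ± 1.83), *Pira12* (34.3 ± 4.06), *Oscar* (10.6 ± 0.839) and *Sirpb1a* (2.54 ± 0.505). The ranges of *Tyrobp* and *Fcer1g* overlapped in WT, as did those of *Btk* and *Pira12*, and all other neighbours were separate. In KO OCPs *Btk* (44.8 ± 7.14 RPKM) stood ahead of *Plcg2* (42.2 ± 4.58), with overlapping ranges, and the rest of the order was as in WT. *Oscar* stayed ninth, at 17.2 ± 2.33 RPKM, next to *Pira12* at 24.2 ± 1.61, and their ranges were separate in both genotypes.

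Reads of the PIR receptors cannot all be told apart, which bears on *Pira12* and *Pirb*. Of the 100-base windows of the *Pira12* transcript, 51.9% occur unchanged in a transcript of another gene. The share was 86.5% for *Pira2*, 79.2% for *Pira1*, 31.7% for *Pira13*, 24.6% for *Pirb* and 8.48% for *Lilra6* (also known as *Pira3*), and 25.4% for *Sirpb1a*. It was 0% for the other 7 members. Their estimated counts therefore depend on how the counting divided reads among the copies, and each of these genes is uncertain on its own.

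The individual Pira genes had log2 fold changes of both signs while their sum hardly differed. *Pira2*, the most abundant activating gene by counts, had 186, 194 and 182 CPM in WT and 219, 218 and 236 CPM in KO (log2 fold change 0.26, standard error 0.09, edgeR adjusted p = 0.148). It was higher in every KO library before the GC correction, while after it the groups overlapped (log2 fold change 0.13, edgeR adjusted p = 0.244). *Pira1* (log2 fold change -0.27, edgeR adjusted p = 0.164), *Pira13* (-0.35, adjusted p = 0.194) and *Lilra6* (-0.36, adjusted p = 0.147) were lower in every KO library, and their GC-corrected values were -0.40, -0.36 and -0.43. The count table lists *Pira1* as a protein-coding gene with loss of function, and it is counted with the activating genes here and in the ratio to *Pirb*. The 5 genes summed to 316, 343 and 308 CPM in WT and 327, 319 and 332 CPM in KO, and the groups overlapped (log2 fold change 0.016, standard error 0.088, edgeR adjusted p = 0.918). As shares of the counts of all 6 Pir genes, *Pira12* went from 9.87 ± 0.64% in WT to 7.30 ± 0.43% in KO, *Pira2* from 25.4 ± 0.50% to 31.9 ± 1.56% and *Pirb* from 56.3 ± 0.31% to 53.7 ± 1.04%, with no overlap in any of the 3. The calls of *Pira12* by DESeq2 thus concern 1 gene of the family and not its summed level. The 3 Sirpb1 genes summed to 28.0 to 35.5 CPM in WT and 29.3 to 38.0 CPM in KO (log2 fold change -0.015, edgeR adjusted p = 0.953).

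**Figure D3:**
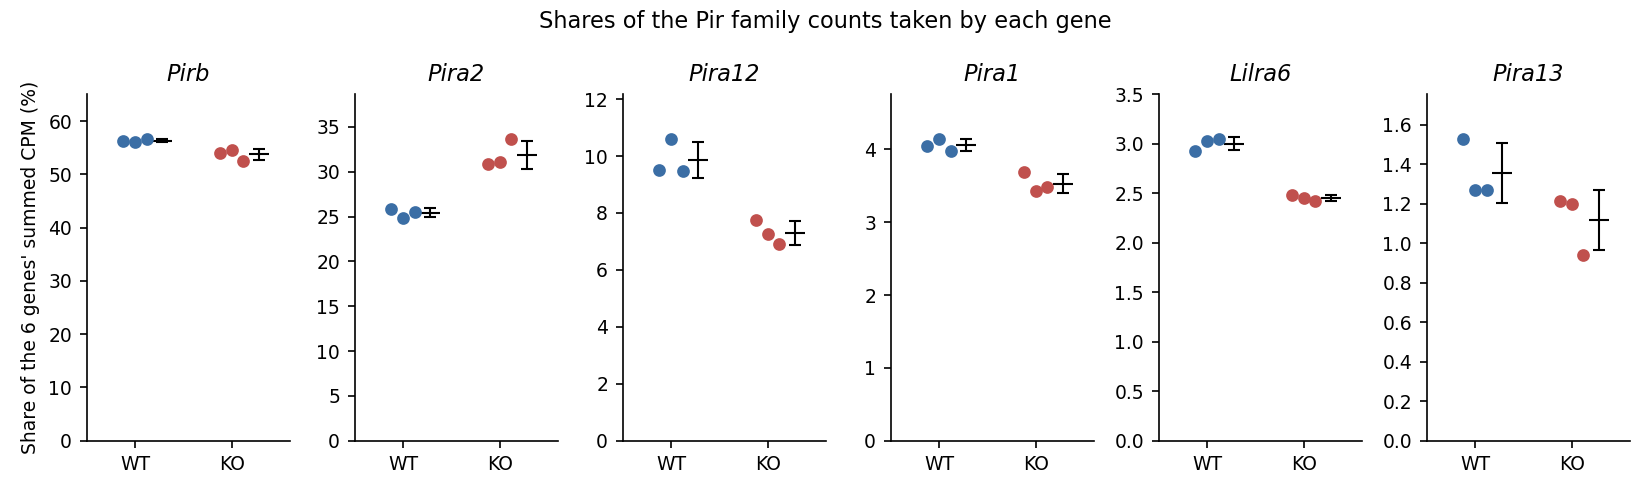
Share of the summed counts of 6 Pir family genes taken by each gene, in percent, in each library (points; blue WT, red KO; mean ± SD of 3 libraries), each panel with its own axis from 0. *Pira2* is higher (25.4% to 31.9% on average) and *Pira12* lower (9.87% to 7.30%) in KO, and the genes share much of their sequence.

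Ratios within a library do not depend on how libraries are scaled. They are given on the log2 scale from counts with a pseudocount of 0.5, and only their difference between genotypes can be read, since transcript lengths differ. With 3 libraries against 3, the exact two-sided permutation test cannot go below p = 0.1, and 4 ratios were tested. *Trem2* relative to its adaptor *Tyrobp* was -0.18, 0.17 and -0.15 in WT and -0.50, -0.43 and -0.70 in KO. Every KO library lay below every WT library, with a difference of -0.49 (exact p = 0.1, adjusted p = 0.2) that was -0.38 after the GC correction. *Oscar* relative to *Fcer1g* was -4.35, -3.67 and -4.29 in WT and -3.69, -3.81 and -2.88 in KO. WT replicate 2, where *Fcer1g* was low, lay among the KO libraries, and the difference was 0.64 (exact p = 0.3, adjusted p = 0.4). It was 0.36 without KO replicate 3, 0.86 without WT replicate 2 and 0.59 with the GC correction.

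The inhibitory *Pirb* relative to the 5 summed activating Pira genes was 0.36, 0.35 and 0.39 in WT and 0.23, 0.27 and 0.15 in KO. The groups were separate by a small distance (difference -0.15, exact p = 0.1, adjusted p = 0.2), and the GC correction gave -0.11. Against *Pira12* alone the same ratio was higher in KO, by 0.37 (exact p = 0.1), so its direction depends on which Pira genes are counted. *Tyrobp* relative to *Fcer1g* was -0.0057, 0.15 and 0.044 in WT and 0.035, -0.10 and 0.43 in KO, where KO replicate 3 alone was high (difference 0.059, exact p = 0.9, adjusted p = 0.9). The difference was 0.15 with the GC correction and -0.096 without KO replicate 3.

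**Figure D4:**
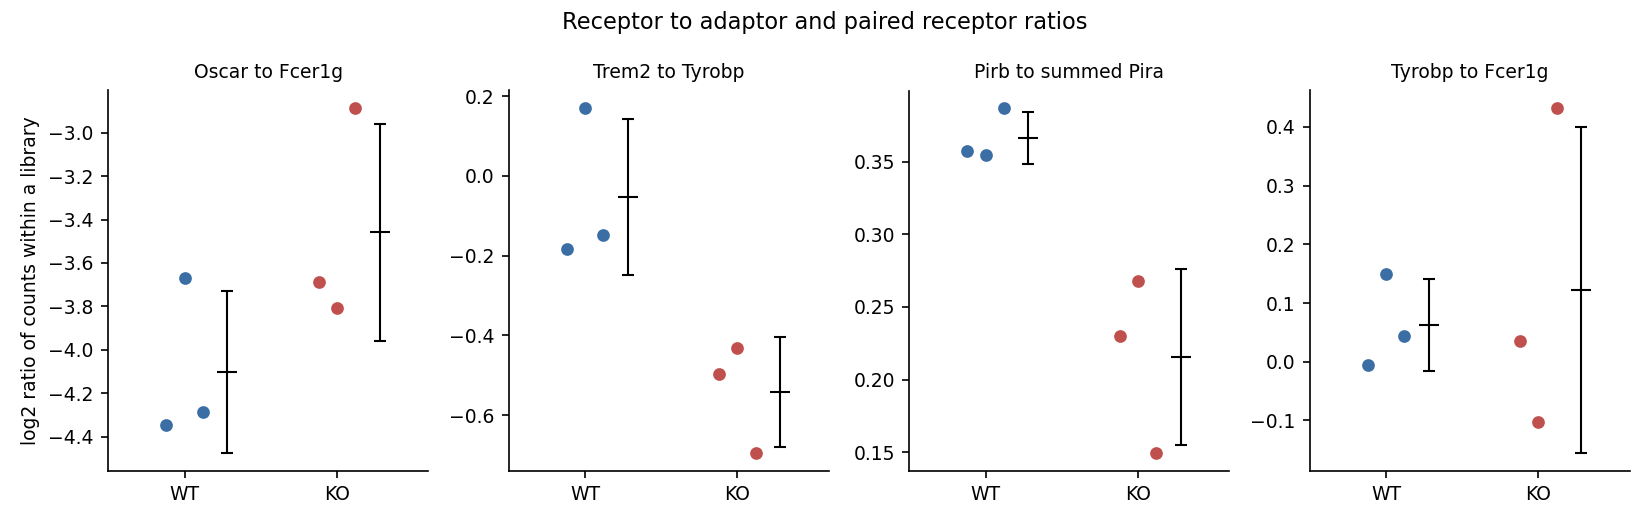
Log2 ratios of counts within each library (points; blue WT, red KO; mean ± SD of 3 libraries); the vertical axes differ and do not start at 0. *Trem2* to *Tyrobp* and *Pirb* to the summed Pira genes lie lower in every KO library, and the other 2 ratios overlap.

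The rest of the pathway was described by role, in lists of genes fixed with earlier results of these data known. The counts at an unadjusted p under 0.05 are to be read against the 13% of all genes that were higher and 13.2% that were lower. Among other activating receptors that pair with DAP12 or FcR gamma, 24 of 30 were tested, of which 5 belong to the Pir and Sirpb1 families. edgeR called 0 of the 24, and at an unadjusted p under 0.05 2 were higher and 4 lower. The median log2 fold change was -0.007 and -0.13 after the GC correction. Of the 24, 4 lay higher and 5 lower in every KO library before the correction (16.9% and 18.8% of all genes), and 3 higher and 11 lower after it (15% and 17.8%). DESeq2 called 2 lower, where 0.695% of the 10357 genes with an adjusted p passed as lower. *Fcgr1*, the high-affinity IgG receptor, had 22.1, 20.1 and 20.6 CPM in WT and 11.7, 14.8 and 13.95 CPM in KO (log2 fold change -0.64, DESeq2 adjusted p = 0.00479). *Plxna1*, the plexin that associates with TREM2 and DAP12, had 841, 1156 and 902 CPM in WT and 669, 498 and 363 CPM in KO (log2 fold change -0.92, DESeq2 adjusted p = 0.00214). Both stood lower in every KO library, the first evenly and the second with a wide spread. The edgeR adjusted p was 0.141 for *Fcgr1* and 0.147 for *Plxna1*, and the GC-corrected log2 fold changes were -0.58 and -0.69. *Cd300lb* (log2 fold change -0.34) and *Klrk1*, the receptor NKG2D (0.91, at 0.943 CPM in WT and 1.78 CPM in KO on average), also had an unadjusted p under 0.05 in edgeR, and stood at -0.37 and 0.66 after the GC correction.

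Of the 18 inhibitory receptors, all tested, edgeR and DESeq2 called 0, and 2 were higher and 1 lower at an unadjusted p under 0.05 in edgeR. The C-type lectins *Clec4a2* (log2 fold change 0.55, edgeR adjusted p = 0.147) and *Clec12a* (0.51, adjusted p = 0.147) were higher in every KO library. Their transcripts are poor in GC (36.8% and 41.0%), and the GC-corrected values were 0.15 and 0.23. After the correction the groups of *Clec4a2* overlapped. *Cd300lf* was at -0.23 (-0.20 corrected), and *Sirpa*, the receptor of CD47, had a log2 fold change of -0.23 (edgeR adjusted p = 0.210) that was -0.09 after the correction. The median of the list was 0.07 and -0.13 after the correction, and 3 of the 18 lay higher and 3 lower in every KO library before it (16.9% and 18.8% of all genes), and 2 higher and 9 lower after it (15% and 17.8%). Among the 14 phosphatases and negative regulators, which act against ITAM signalling, 0 were called by edgeR or DESeq2, and 1 was higher and 5 were lower at an unadjusted p under 0.05 in edgeR, where 13% and 13.2% of all genes were. SHIP1 (*Inpp5d*, log2 fold change -0.36), SHP-1 (*Ptpn6*, -0.27) and *Dok2* (-0.26) were lower and *Ptpn22* (0.38) was higher. After the GC correction these were -0.25, -0.11, 0.010 and 0.22, and the groups of *Dok2* overlapped. The median of the list went from -0.18 to -0.09 with the correction. Before it 1 of the 14 lay higher and 7 lower in every KO library (16.9% and 18.8% of all genes). After it 2 lay higher and 6 lower (15% and 17.8%).

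Among the 26 proximal kinases and adaptors, edgeR called 0, and 1 was higher and 8 were lower at an unadjusted p under 0.05. This is 8 of 26, where 13.2% of all genes were lower. Before the GC correction 2 of the 26 lay higher and 12 lower in every KO library (16.9% and 18.8% of all genes). After it 3 lay higher and 10 lower (15% and 17.8%). Among those with the smallest p were *Fgr*, a SRC-family kinase (log2 fold change -0.50), *Sh3bp2*, an adaptor that binds SYK and PLC gamma (-0.43), and *Pik3cd*, the PI3K delta catalytic subunit (-0.52), with edgeR adjusted p = 0.147 for each. Corrected for GC content these were -0.42, -0.23 and -0.29, and the median of the list was -0.07 where it had been -0.08. DESeq2 called 0 of the 26, and with the GC correction it called *Fgr* lower, where 1.47% of 11602 genes passed as lower.

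In the calcium and NFAT branch 22 of 23 genes were tested, with 0 called by edgeR or DESeq2. At an unadjusted p under 0.05 in edgeR 2 were higher and 3 lower. The median of the list was -0.07 (-0.09 after the GC correction). Before the correction 2 of the 22 lay higher and 6 lower in every KO library (16.9% and 18.8% of all genes). After it 1 lay higher and 6 lower (15% and 17.8%). *Nfatc2* (log2 fold change -0.51), the calcium sensor *Stim1* (-0.37) and the IP3 receptor *Itpr1* (-0.40) were lower and the calmodulin gene *Calm2* (0.30) was higher. Each had an edgeR adjusted p of 0.147 or more. The GC-corrected values were -0.33, -0.22, -0.42 and 0.096 in that order, and the groups of *Calm2* then overlapped. *Nfatc1*, the factor at the end of the branch, overlapped between the genotypes at 267, 324 and 269 CPM in WT and 332, 282 and 266 CPM in KO. Of 12 ligand genes of these receptors, 9 were tested, with 0 called by edgeR or DESeq2. At an unadjusted p under 0.05 in edgeR 0 were higher and 4 lower, where 13.2% of all genes were lower. The median of the ligands was -0.27 (-0.06 after the GC correction). Before the correction 0 of the 9 lay higher and 5 lower in every KO library, and after it 0 lay higher and 3 lower. The MHC class I genes *H2-D1* (log2 fold change -0.46) and *H2-K1* (-0.38), which encode ligands of PIR-B, were lower in every KO library, with edgeR adjusted p = 0.147 for each, and stood at -0.27 and -0.17 after the GC correction. *Apoe*, a TREM2 ligand, was at -0.27 and at 0.075 after the GC correction, and *Col1a2*, a collagen chain that OSCAR can bind, was at -0.42 (-0.24 corrected), from 7.65 CPM in WT and 5.69 CPM in KO on average.

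**Figure D5:**
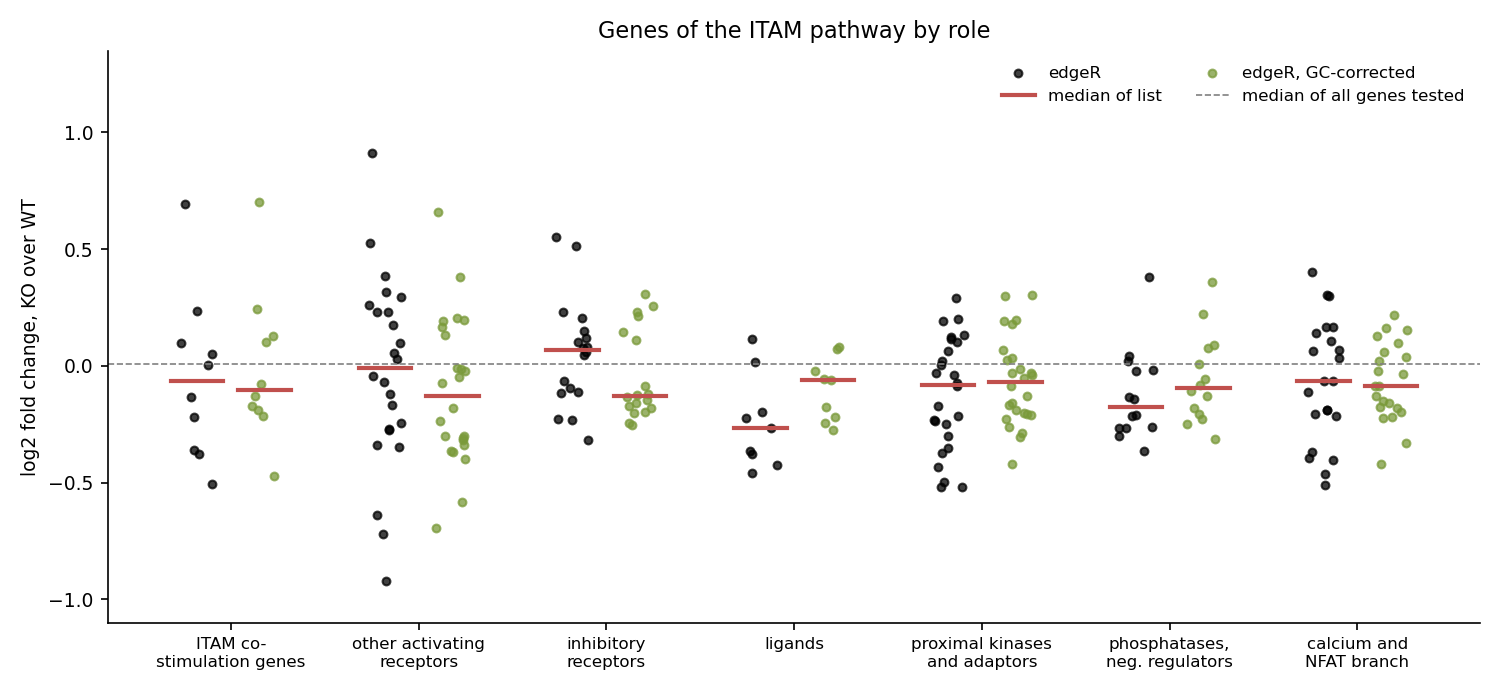
Log2 fold changes (KO over WT) of the genes tested, by role in the ITAM pathway, from edgeR (black) and edgeR with the GC correction (green); red bars mark the median of each list and the dashed line that of all genes tested, 0.0091. Genes lie on both sides of 0 in every list, and the median of the ligands goes from -0.27 to -0.06 with the correction.

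The genes most like *Oscar* across the 6 libraries were found by the root mean square difference of mean-centred log2(CPM + 0.5), a description with no test. They were *Pip5k1b* (0.0532), *Gimap6* (0.0644), *1700096K18Rik* (0.0815), *Gm26912* (0.0821) and *Gimap9* (0.0946). *Pip5k1b*, a kinase that makes the lipid substrate of phospholipase C, had 11.3, 13.1 and 11.1 CPM in WT and 17.4, 17.8 and 20.5 CPM in KO. Like *Oscar*, it was highest in KO replicate 3 and, among the WT libraries, in WT replicate 2. The other 4 lay at 5.70 CPM or less in every library, and for the last 3, below 1.6 CPM, the added 0.5 shrinks the differences.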

How the data were processed

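Stranded mRNA libraries (Illumina) of RANKL-primed osteoclast precursors were sequenced, 3 per genotype. The authors deposited estimated counts per gene, which need not be whole. The submitters' processing notes name fastp, HISAT2, StringTie and RSEM and the build GRCm39, with no versions. The deposited mean counts per genotype were not used. Counts were rounded and tested with edgeR 4.0.16 (R 4.3.3) by its quasi-likelihood test after filterByExpr and TMM scaling, with Benjamini-Hochberg adjustment over 13428 genes, and a gene was called at an adjusted p under 0.01 and a fold change above 1.3. CPM are TMM-scaled. The GC correction entered offsets from a spline (5 degrees of freedom) of each library's deviations on transcript GC content. Alternatives were DESeq2 1.42.0, limma-voom (limma 3.58.1), other scalings and filters, a replicate block, each library left out, and Pira and Sirpb1 counts summed. Scripts were tested on simulated data. Transcript length and GC content came from GENCODE M21 and promoter windows from RefSeq, both on GRCm38, matched by gene ID or symbol. Genes named in the text were all members, their family genes, up to 4 genes of smallest p per list and 5 nearest to *Oscar*; *Nfatc1* was added after its values were seen. A listed gene is not reported here. Members and lists were chosen with earlier results of these data known. Libraries of 1 genotype differed beyond sampling noise. At 17757351 to 19998611 counts a library, members had 54.0 to 9191 counts. The edgeR and DESeq2 p-values set the difference between genotypes against the spread between these libraries, estimated with sharing across genes.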

Additional observations from a re-analysis of the deposited data

How the results depend on the processing

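The count of calls among all genes depended most on the tool. edgeR called 0 genes higher and 1 lower, DESeq2 54 and 72, edgeR with the GC correction 2 and 4, and DESeq2 with the GC correction 188 and 170. Of the 10 co-stimulation genes, 2 were called with DESeq2, with or without the GC correction, and 0 under every other setting at the same limits. At an adjusted p under 0.05 edgeR called 0 without the GC correction, and *Oscar* and *Pira12* with it. Leaving out 1 library at a time gave 0 genes called higher and between 0 and 2 lower, with 2 lower without KO replicate 1 and 0 without WT replicate 2, WT replicate 3 or KO replicate 2. Over 18 settings the log2 fold change of *Oscar* lay between 0.58 and 0.76 (adjusted p 1.61e-05 to 0.442), that of *Pira12* between -0.56 and -0.40 (adjusted p 0.000677 to 0.442), and that of *Trem2* between -0.44 and -0.13 (adjusted p 0.0316 to 0.442).

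Signs turned for the following genes, and the causes were not tested. *Tyrobp* went to -0.0067 without WT replicate 2. *Fcer1g* lay between -0.087 and 0.21 with single libraries left out, and was below 0 without WT replicate 2, KO replicate 1 (-0.00063) or KO replicate 2 (-0.067). *Sirpb1a* was at -0.013 with library size alone, -0.0082 without a filter, -0.015 with the Sirpb1 genes summed, -0.17 with the GC correction under edgeR, DESeq2 or a replicate block, and between -0.15 and 0.13 with single libraries left out (-0.15 without WT replicate 2, -0.022 without KO replicate 2 and -0.078 without KO replicate 3). *Sirpb1c* was at -0.30 under each of the GC-corrected fits, and between -0.090 and 0.10 with single libraries left out (-0.043 without WT replicate 2 and -0.090 without KO replicate 3). *Dok2* was at 0.010 with the GC correction, 0.00047 with the block added and 0.012 with DESeq2, and *Apoe* at 0.075, 0.076 and 0.077. For *Pira12* the sum of the Pira genes gave 0.016. The ratio of *Pirb* to *Pira12* alone differed by 0.37, and that of *Tyrobp* to *Fcer1g* lay between -0.096 (without KO replicate 3) and 0.17 with single libraries left out. Otherwise 285 of 294 fold changes with a library left out and 505 of 540 under other settings kept their sign and their side of the limits, and 19 of the 540 passed the limits that they had missed.

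Same-numbered WT and KO libraries correlated in their deviations at -0.28, 0.11 and 0.22 for numbers 1 to 3. Not every library correlated best with its own number. With 3 libraries a genotype, such correlations cannot settle whether the numbers pair the samples. With the replicate block edgeR called 0 genes higher and 1 lower, as without it, and the log2 fold changes were 0.69 for *Oscar* (adjusted p = 0.0747) and -0.50 for *Pira12* (adjusted p = 0.0791). The 3 libraries a genotype and the GC content limit what is shown. *Sirpb1a*, at 54.0 to 87.9 counts a library, is the member with the least depth.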
